A study of Anas platyrhynchos with 2 samples.

Results

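The cluster that runs from miR-17 to miR-92 and its relative that runs from miR-106 to miR-363, called the miR-17 and the miR-106 cluster below, were followed in small RNA of the duck duodenum. Of the 288 mature miRNAs in the deposited table, 18 belonged to them, on 10 hairpins. They were taken by name (miR-17, miR-18a, miR-18b, miR-19a, miR-19b, miR-20a, miR-20b, miR-92, miR-106 and miR-363, all arms), and novel_163, a predicted miRNA, was added because its sequence is that of miR-363-3p. That identity rests on general knowledge of the sequence, since the table does not name it so, and no row is called miR-363. The ducks were females of the Jingjiang breed, an egg-laying domestic duck, at 1 day of age, and 20 of them were split between a control group and a transported group. Both groups were put in carrying cases, and the transported ducks alone travelled by vehicle for 8 h at 40 to 70 km per h over ordinary and bumpy roads. The labels describe the control tissue as normal duodenum and the other as duodenum with mucosal damage from transport. Each group has 1 library. The sources used here do not say how many ducks it holds.

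The libraries are named CC and CT in the table. CC was read as control and CT as transported from the last letter alone, which no label spells out, so directions are given as CT against CC and would reverse relative to transport if that reading were wrong. The counts summed to 5772509 in CC and 5272666 in CT. Levels are in CPM, counts per 1000000 counts of the library, and each ratio carries an exact 95% interval for counting error only. With 1 library per group there is no replicate check, no p-value, and no way to separate transport from differences between the ducks or the preparations. In bulk tissue, fewer cells of a type and less RNA per cell cannot be told apart. Ratios were given where both libraries together held 50 counts or more, which 11 of the 18 members and 149 of the 288 listed miRNAs had.

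The miR-17 cluster is made as a single primary transcript that is cut into hairpins for miR-17, miR-18a, miR-19a, miR-20a, miR-19b and miR-92. In human and mouse cells its transcription is driven by MYC and E2F factors, and it is known for promoting cell division and survival and for its high levels in colorectal tumours. The miR-106 cluster arose from it by duplication in vertebrates and carries miR-106, miR-18b, miR-20b, further copies of miR-19b and miR-92, and miR-363. A miRNA finds its targets mainly by its seed, bases 2 to 8 counted from the 5′ end, so that members of both clusters with a common seed can act on the same mRNAs.

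The sequences below are those of the deposited table, 5′ to 3′, with the seed in capitals and the table's prefix for chicken names (gga). They are shown because 4 seeds cover 10 of the 18 members, which held nearly all the counts. The miR-17 seed, AAAGUGC, is known in human cells for acting on the cell cycle inhibitor p21 (CDKN1A).
gga-miR-17-5p: cAAAGUGCuuacagugcagguagu
gga-miR-106-5p: aAAAGUGCuuacagugcaggua
gga-miR-20a-5p: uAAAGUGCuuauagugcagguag
gga-miR-20b-5p: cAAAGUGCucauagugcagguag
The miR-18 seed differs from it by a single substitution, A4G (base in miR-17-5p, position from the 5′ end, base in miR-18a-5p).
gga-miR-18a-5p: uAAGGUGCaucuagugcagaua
gga-miR-18b-5p: uAAGGUGCaucuagugcaguua
The miR-19 seed is shared by miR-19a-3p and miR-19b-3p.
gga-miR-19a-3p: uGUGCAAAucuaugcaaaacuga
gga-miR-19b-3p: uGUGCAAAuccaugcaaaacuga
The miR-92 seed is shared by miR-92-3p and novel_163.
gga-miR-92-3p: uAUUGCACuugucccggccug
novel_163: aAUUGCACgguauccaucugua

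Several of these rows are hard to tell apart by reads. miR-106-5p and miR-17-5p are identical over 21 bases from the second on and differ by A1C (base in miR-106-5p first). miR-18a-5p and miR-18b-5p differ by A20U, and miR-19a-3p and miR-19b-3p by U11C, the first-named miRNA's base first in each. miR-20a-5p differs from miR-20b-5p by U1C and U10C. In all, 10 members lay within 2 mismatches of another member, and 0 miRNAs outside the clusters lay that near to any of them. No source used here says how reads matching more than 1 row were assigned, so the split between such rows is uncertain and their sum is firmer. miR-92-3p and novel_163 matched at 10 of 21 aligned bases, mostly in the seed, and were not among these.

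Together the 18 members took 0.747% of the CC counts and 0.816% of the CT counts. The miR-92 seed was by far the more abundant. novel_163 had 17098 counts in CC and 15200 in CT, or 2962 and 2883 CPM. miR-92-3p had 14743 and 16984 counts, or 2554 and 3221 CPM. These 2 rows held 73.8% of the members' counts in CC (exact interval 73.4 to 74.2%) and 74.8% in CT (74.4 to 75.2%). Among all listed miRNAs novel_163 ranked 27 in CC and 28 in CT, and miR-92-3p ranked 31 and 27.

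The miR-17 seed came next, led by miR-20a-5p. It had 922 CPM for CC and 926 CPM for CT, from 5320 and 4885 counts. Its relative miR-20b-5p had 296 and 310 CPM, from 1707 and 1634 counts. miR-17-5p had 271 and 283 CPM, from 1563 and 1493 counts. miR-20a-5p thus held 54.2% of the seed group in CC (53.2 to 55.2%) and 52.8% in CT (51.8 to 53.8%). miR-20b-5p and miR-17-5p stood close, and the exact intervals of their levels overlapped in both libraries. miR-20b-5p took 52.2% (50.5 to 53.9%) of their joint counts for CC and 52.3% (50.5 to 54.0%) for CT. miR-106-5p stood lower than miR-17-5p, at 213 CPM for CC and 235 CPM for CT, from 1229 and 1240 counts.

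The miR-19 and miR-18 seeds were scarce. miR-19b-3p had 568 counts in CC and 621 in CT, or 98.4 and 118 CPM. miR-19a-3p had 220 and 270 counts, or 38.1 and 51.2 CPM. miR-18a-5p had 115 and 122 counts, or 19.9 and 23.1 CPM, and miR-18b-5p was the lowest of the 11, with 45 and 71 counts, or 7.80 and 13.5 CPM. The order of the 11 members by counts was alike in both libraries except at the top. There novel_163 stood 1.16-fold above miR-92-3p in CC and miR-92-3p stood 1.12-fold above novel_163 in CT. Intervals of neighbours overlapped for miR-20b-5p and miR-17-5p in both libraries, and for miR-19b-3p and miR-106-3p in CC. The span from the highest to the lowest was 380-fold in CC and 239-fold in CT. Each read stands for a whole miRNA, so no length enters these levels, but adapters join some miRNA ends more readily than others and the part of that step in the order was not tested.

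**Figure D1:**
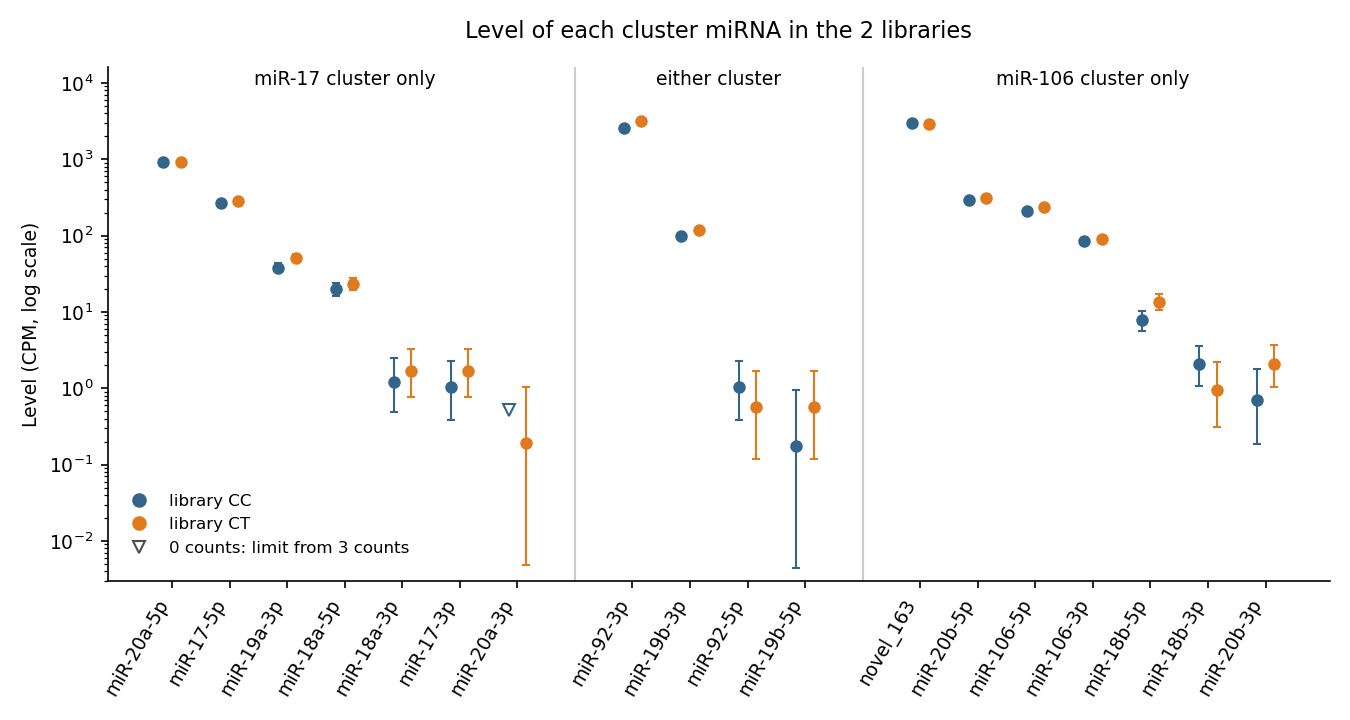
Level of each of the 18 members (CPM, log axis) in library CC (blue) and library CT (orange), grouped by the cluster that can hold the row. Bars are exact 95% Poisson intervals and the open triangle marks 0 counts, drawn at the 0.520 CPM that 3 counts would give. novel_163 and miR-92-3p stood highest, and 7 minor arms lay at 12 counts or fewer.

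The remaining 7 members were minor arms with at most 12 counts in a library. miR-17-3p had 6 counts in CC and 9 in CT, and miR-18a-3p had 7 and 9. miR-18b-3p had 12 and 5 counts, and miR-20b-3p had 4 and 11. miR-92-5p had 6 and 3, miR-19b-5p had 1 and 3, and miR-20a-3p had 0 and 1. At this depth no difference was detectable in any of the 7, since each exact interval included a ratio of 1. With the floor of 3 counts, a count of 0 allows a level of up to 0.520 CPM in CC.

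Between the libraries, none of the 11 members was 2-fold apart, against 11 of the 149 miRNAs under the same rule (7.38%). With so low a share over all rows, this does not set the members apart. In CT 10 of the 11 were higher and 1 was lower, whereas 79 of the 149 were higher (53.0%), and the median log2 ratio was 0.14 over the 11 and 0.02 over the 149. The count of higher members was 9 with TMM scaling, beside 69 of the 149. It was 7 with median-of-ratios size factors, beside 67. The shift of that scaling is the log2 ratio of miR-17-5p with its sign turned, so miR-17-5p was equal by construction. The count of higher members was 11 once the 10 most abundant miRNAs were left out of the totals, beside 86. These settings shift all log2 ratios by -0.05, -0.06 and 0.06. The intervals of 5 members lay above a ratio of 1, against 52 of the 149 (34.9%), and that of 1 member lay below it, against 50 (33.6%). The quartiles of all 149 log2 ratios were -0.25 and 0.36. Of the members 9 fell between them and 2, miR-18b-5p and miR-19a-3p, above.

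In the miR-92 seed group the 2 members went apart. miR-92-3p was 1.26-fold higher in CT (interval 1.23 to 1.29). novel_163 was 1.03-fold lower (1.01 to 1.05), and was higher once the 10 most abundant miRNAs were left out of the totals (log2 ratio 0.02). Other miRNAs of like abundance differed either way by about as much as miR-92-3p. miR-101-3p, at 2573 CPM for CC and 3292 CPM for CT, was 1.28-fold higher, and miR-199-5p, at 2995 and 2429 CPM, was 1.23-fold lower. At this depth the counting intervals are narrow. The only other row with this seed was miR-32-5p, which lies outside the clusters.
gga-miR-32-5p: uAUUGCACauuacuaaguugc
It had 175 counts in CC and 279 in CT, 1.75-fold higher in CT (1.44 to 2.12), and added little to the seed's total, which was 5516 CPM for CC and 6104 CPM for CT over the members and 5546 and 6157 CPM with miR-32-5p.

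The miR-17 seed group was almost level. Its 4 members summed to 1701 CPM for CC and 1755 CPM for CT (log2 ratio 0.04, 0.0037 to 0.09). With TMM scaling the log2 ratio was -0.00017 and with size factors -0.02, so no direction is given. miR-20a-5p had a log2 ratio of 0.0076 (-0.05 to 0.06), and was lower in CT with TMM (-0.04) or size factors (-0.06). miR-17-5p stood at 0.06 (-0.04 to 0.17) and miR-20b-5p at 0.07 (-0.03 to 0.17). miR-106-5p was 1.10-fold higher (1.02 to 1.20). The interval of miR-106-5p alone of the 4 excluded a ratio of 1, and with TMM or size factors it no longer did. Over its whole length it differs from miR-17-5p in the first base only.

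The miR-19 and miR-18 seed groups were higher in CT under each scaling tried. Their log2 ratios, 0.31 and 0.40, exceed every shift of those scalings, so the sign could not have turned. The upper quartile of the 149 single rows was 0.36. The miR-19 sum was 137 CPM for CC and 169 CPM for CT, 1.24-fold higher (1.12 to 1.36), with miR-19a-3p at 1.34-fold (1.12 to 1.61) and miR-19b-3p at 1.20-fold (1.07 to 1.34). A predicted miRNA outside the clusters, novel_79, shares this seed and had 17 counts in CC and 11 in CT. The miR-18 sum was 27.7 CPM for CC and 36.6 CPM for CT, 1.32-fold higher (1.07 to 1.64). miR-18b-5p was 1.73-fold higher (1.17 to 2.57), on 116 counts in all, and was the only member past 1.5-fold, a size reached upwards by 14.8% of the 149. miR-18a-5p, at 1.16-fold, had an interval from 0.893 to 1.51. The miR-18b-5p and miR-18a-5p intervals overlapped. With a pseudocount of 5 CPM, which weighs on scarce miRNAs, the log2 ratio of miR-18b-5p was 0.53 in place of 0.79.

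**Figure D2:**
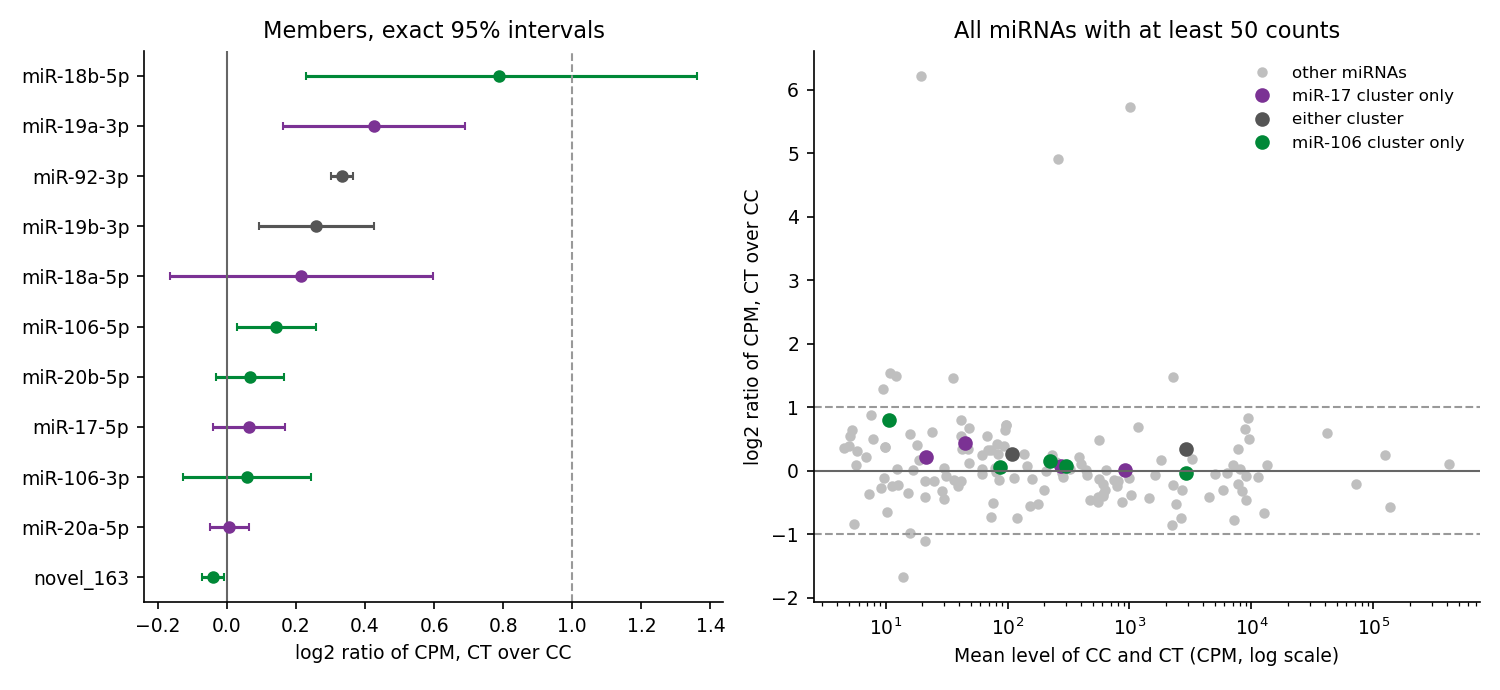
Left, log2 ratio of CPM (CT over CC) of the 11 members with at least 50 counts, with exact 95% intervals. Right, log2 ratio against mean level (CPM, log axis) for the 148 miRNAs that reach 50 counts in sum and are counted in each library, members coloured by cluster and others grey. Dashed lines mark a 2-fold difference, which none of the members reached, and the members lay from -0.04 to 0.79.

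The clusters were then compared with each other. The rows of miR-19b and miR-92 can come from either cluster, since the table holds 1 hairpin for each name, and were kept apart. The 7 rows placed in the miR-17 cluster by name summed to 1253 CPM for CC and 1288 CPM for CT (log2 ratio 0.04, -0.0083 to 0.09). The 7 rows of the miR-106 cluster summed to 3567 CPM for CC and 3534 CPM for CT (log2 ratio -0.01, -0.04 to 0.02). Neither interval excluded a ratio of 1, and both signs turn with the scaling, so no direction is given for either sum. Without novel_163 the miR-106 cluster's rows summed to 605 CPM for CC and 651 CPM for CT, 1.08-fold higher (1.03 to 1.13), an interval that includes 1 with TMM or size factors. The rows of either cluster, nearly all miR-92-3p, summed to 2654 CPM for CC and 3340 CPM for CT, 1.26-fold higher (1.23 to 1.29).

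Within a library the comparison needs no scaling. The miR-106 cluster held 74.0% of the counts of both clusters' own rows in CC (73.5 to 74.5%) and 73.3% in CT (72.7 to 73.8%). Most of that was novel_163, and without it CC stood at 32.6% (31.7 to 33.5%) and CT at 33.6% (32.7 to 34.5%). The intervals of CC and CT overlapped both with novel_163 and without it. Which cluster held more counts in its own rows thus rested on a single row. The rows of miR-19b and miR-92, left out here, held 15318 counts in CC and 17611 in CT. Their placement could also change which cluster held more.

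The clusters pair up by seed. miR-106-5p held 44.0% of its pair with miR-17-5p in CC (42.2 to 45.9%) and 45.4% in CT (43.5 to 47.3%). miR-20b-5p held 24.3% of its pair with miR-20a-5p in CC (23.3 to 25.3%) and 25.1% in CT (24.0 to 26.1%). miR-18b-5p held 28.1% of its pair with miR-18a-5p in CC (21.3 to 35.8%) and 36.8% in CT (30.0 to 44.0%). In these 3 pairs the miR-106 cluster's member was the scarcer in both libraries, and its share had overlapping intervals. How reads matching both rows of such a pair were assigned is not given. The intervals do not cover that, so these splits are uncertain. The pair of novel_163 and miR-92-3p differed, with novel_163 at 53.7% in CC (53.1 to 54.2%) and 47.2% in CT (46.7 to 47.8%), a difference of -6.47 percentage points, with intervals that did not overlap. That pair also had the most counts, 31841 in CC against 160 for the miR-18 pair, so a difference of that size could not have been seen in the miR-18 pair. Here miR-92-3p may hold reads from both clusters and novel_163 from a single hairpin.

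**Figure D3:**
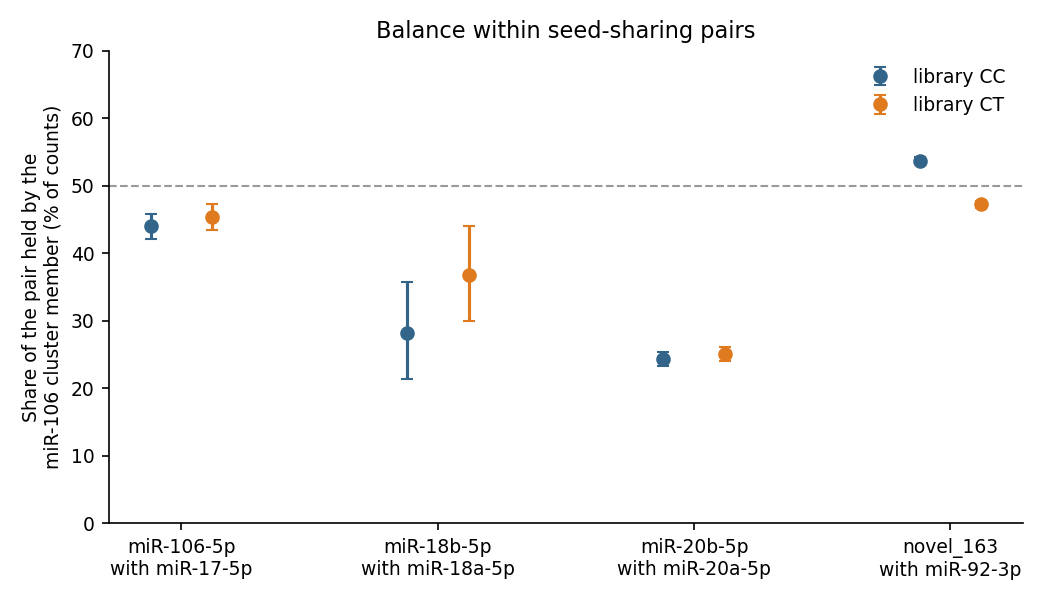
Share of each seed-sharing pair held by its miR-106 cluster member (percent of the pair's counts) in library CC (blue) and library CT (orange), with exact 95% binomial intervals. miR-92-3p may hold reads from both clusters, so its pair is not a split between them. The dashed line is an equal split. The 3 pairs of the miR-17 and miR-18 seeds had the miR-106 cluster's member under 46% in both libraries, and novel_163 held 53.7% of its pair in CC and 47.2% in CT.

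A hairpin gives a 5p and a 3p arm, of which usually a single one is kept. Of the member hairpins 8 had both arms listed, and 6 of these had under 7% of their counts on the minor arm in both libraries. miR-17 and miR-20b had at most 0.669% on the 3p arm, miR-20a at most 0.0205%, and miR-92 at most 0.0407% and miR-19b at most 0.481% on the 5p arm. miR-18a had 5.74% on the 3p arm in CC and 6.87% in CT. miR-18b had 21.1% in CC (11.4 to 33.9%) and 6.58% in CT (2.17 to 14.7%), from 12 and 5 counts, with intervals that overlapped.

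miR-106 kept far more of its minor arm than miR-17, with 495 counts on the 3p arm in CC and 471 in CT. The minor arm held 28.7% of the hairpin in CC (26.6 to 30.9%) and 27.5% in CT (25.4 to 29.7%), with overlapping intervals. In miR-17, the nearest paralog, the same arm held 0.382% in CC (0.140 to 0.830%) and 0.599% in CT (0.274 to 1.13%). The contrast between the hairpins was seen in both libraries, with intervals that did not overlap in either. Both shares depend on how reads were split between miR-106-5p and miR-17-5p, which the intervals do not cover. In 62 other hairpins for which each arm has a row and the arms sum to 50 counts or more, the median share of the minor arm was 0.543% in CC and 0.734% in CT, and 7 of them in CC and 5 in CT had a share as high as that of miR-106. miR-106-3p itself had a log2 ratio of 0.06 (-0.13 to 0.24), near the 0.14 of its 5p arm, and -0.0056 with size factors.

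The hairpins are shown as deposited, with both listed arms in capitals, because the listed 3p arms differ in length and start.
miR-106: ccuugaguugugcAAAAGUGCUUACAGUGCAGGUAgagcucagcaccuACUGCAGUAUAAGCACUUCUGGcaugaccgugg
miR-17: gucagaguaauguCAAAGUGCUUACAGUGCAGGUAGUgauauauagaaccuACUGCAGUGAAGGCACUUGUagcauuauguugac
miR-20a: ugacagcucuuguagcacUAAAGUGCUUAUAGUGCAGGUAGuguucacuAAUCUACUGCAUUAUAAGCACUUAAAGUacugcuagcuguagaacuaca
novel_163: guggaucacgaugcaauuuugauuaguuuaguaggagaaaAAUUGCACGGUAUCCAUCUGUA
The 3p arm listed for miR-20a is 28 bases long, against 22 for miR-106 and 20 for miR-17. The effect of these differences in listing on the arm shares above, that of miR-106 against miR-17 included, was not tested. The sequence of miR-106-3p matches the miR-20a hairpin at 18 of 22 bases in its best ungapped place, bases 55 to 76, with the differences G7U, C19A, U20A and G21A (base of miR-106-3p first, positions from its 5′ end). It matches the miR-17 hairpin at 17 of 22 bases. Whether reads of other 3p arms were counted under miR-106-3p was not tested. The chicken names come with chicken hairpins, and a duck sequence that differs from them could lose counts, which was not tested either. novel_163 is the exception, predicted on the plus strand of scaffold KB743532.1 at 1218521 to 1218631 in the table's coordinates. That interval spans 111 bases, whereas the deposited hairpin of novel_163 has 62. The table names no build, and the position was not annotated here. Only its 3p arm is listed.

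**Figure D4:**
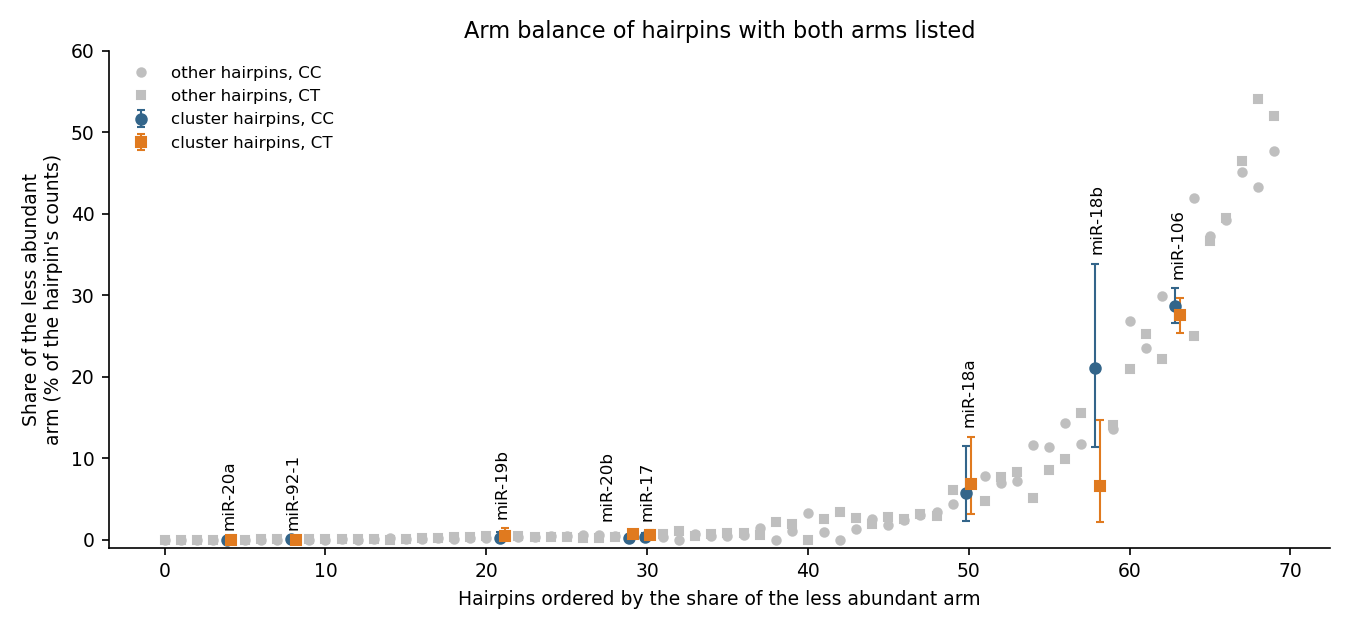
Share of the less abundant arm (percent of the hairpin's counts) for the 70 hairpins that list each arm and sum to 50 counts or more, ordered by that share. Cluster hairpins are labelled and carry exact 95% binomial intervals, and other hairpins are grey. miR-106 lay at 28.7% in CC and 27.5% in CT, while miR-17, miR-20a, miR-20b, miR-19b and miR-92 lay under 1%.

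Other miRNAs known for control of the cell cycle were 8 higher and 11 lower in CT, beside 79 higher and 70 lower of the 149. The list held the miR-15 and miR-16 family, which restrains cyclins, the let-7 family, miR-24, miR-26a, miR-34, miR-221 and miR-222, whose row is named miR-222a. The latter was added after its value was seen, since the list held the name without the letter, and without it 10 were lower. Of the 19 rows with at least 50 counts 0 were 2-fold apart, beside 11 of the 149 (7.38%). The median log2 ratio was -0.06, beside 0.14 over the 11 members and 0.02 over all 149. miR-34a-5p, a p53 target, was 1.47-fold higher (1.26 to 1.70), and miR-16-5p 1.19-fold higher (1.08 to 1.32). miR-24-3p was 1.42-fold lower and miR-222a 1.40-fold lower. miR-26a-5p, at 9373 CPM for CC and 7481 CPM for CT, was 1.25-fold lower. miR-16c-5p, at 639 and 643 CPM, had a log2 ratio of 0.01 (-0.06 to 0.08). The shifts of -0.05 with TMM and -0.06 with size factors would turn its sign. With totals less the 10 most abundant miRNAs, the shift of 0.059 would turn that of let-7a-5p (-0.054). let-7e and let-7h were not among the names in the table.

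Markers of cell types in the tissue, and of the pancreas, also differed between the libraries. Rows of intestinal epithelium, the surface layer of the labelled tissue, summed to 45.3% of the CC counts and 50.9% of the CT counts, with no row for miR-192. Most of that was miR-215-5p, at 405612 CPM for CC and 435164 CPM for CT, 1.07-fold higher. Of 7 epithelial rows with at least 50 counts 6 were higher in CT, beside 53.0% of the 149. miR-194 was 1.51-fold, miR-200a-3p 1.57-fold, miR-200b-3p 1.78-fold and miR-429-3p 1.40-fold higher. The ratio of miR-200b-5p, 1.09, had an interval from 0.917 to 1.30, and miR-200a-5p was 1.09-fold lower. The rows listed for the pancreas, miR-375 among them, summed to 1261 CPM for CC and 5928 CPM for CT, with miR-216c at 0 counts in CC. All 5 of 5 rows were at least 2-fold higher, beside 9 of the 149. Most of the CC sum was miR-375, at 1206 CPM for CC and 3365 CPM for CT, 2.79-fold higher. Whether miR-375 came from the pancreas or from cells of the duodenum was not tested, so the sum is no measure of pancreas in CC. The other rows differed far more, with miR-217-5p at 37.6 and 1996 CPM and miR-216b at 16.6 and 499 CPM. Rows listed for muscle (miR-1a, miR-1b, miR-133a, miR-133b, miR-133c and miR-206) summed to 8873 and 6638 CPM, with 4 of 5 lower, beside 70 of the 149. The intervals of 3 lay below a ratio of 1, beside 50 of the 149 (33.6%). That of miR-133c-3p ran from 0.822 to 1.03, and that of miR-133b, which was higher, from 0.994 to 1.77. Those of endothelium, both arms of the miR-126 hairpin, summed to 9301 and 5451 CPM. Nearly all of it was miR-126-3p, 1.72-fold lower, and the ratio of miR-126-5p had an interval from 0.832 to 1.005. Leukocyte rows summed to 128 and 145 CPM, with both arms of miR-142 higher, miR-223 at 121 and 56 counts (1.97-fold lower) and miR-155 at 1 count in each library. Red blood cell rows summed to 3.29 and 1.90 CPM, all under 50 counts. The part of these cells in the members' differences was not tested.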

How the data were processed

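Trizol-extracted RNA (10 µg) was run on a 15% TBE-urea gel, from which 20 to 30 nt were kept for Illumina libraries, per the labels' protocols. The aligner, miRNA predictor, database and build: not given in the sources used here. Per the file headers, the authors deposited read counts and TPM per mature miRNA. The deposited TPM equal the count scaled to a library sum of 1000000, within 4.3e-05, with no length term, and are called CPM here.

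Ratios of CT to CC carry exact conditional (Clopper-Pearson) 95% intervals, shares exact binomial ones. No source mentions molecular identifiers, and intervals and floors (3 counts) therefore cover counting error only. The members, lists and alternatives were chosen with earlier results of these data known. All members are named, with rows that share their seed, lie within 2 mismatches or are among the 3 nearest to miR-92-3p in mean CPM. The cell cycle and cell type lists are given by counts and sums, with examples. No ratio is printed for rows under 50 counts, but the intervals of the minor arms and the setting with no minimum used theirs. Intervals were tested on simulated data. Alternatives were TMM (edgeR 4.0.16), DESeq2 1.42.0 median-of-ratios size factors, library totals less the 10 most abundant rows, other minimums (none or 500), a pseudocount of 5 CPM, a 1.5-fold rule and other sets of members. Python 3.11.15, scipy 1.17.1 and R 4.3.3 were used.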

Additional observations from a re-analysis of the deposited data

How the results depend on the processing

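No paired analysis was possible because each group has 1 library. Of the 44 recomputed log2 ratios of single members, 36 stayed inside their main interval, 7 left it, and 1 whose interval excluded 0 changed sign, that of novel_163 (0.020 once the 10 most abundant rows were left out of the totals). The signs of miR-20a-5p and miR-106-3p, whose intervals included 0, also changed with size factors. Members with an interval above 1 numbered 8 with those totals in place of 5, and 4 with TMM or size factors, which end the call of miR-106-5p. Those with an interval below 1 numbered 1, 0 with the reduced totals and 2 with size factors, where miR-20a-5p joined novel_163. Members 2-fold apart numbered 3 with no minimum, which adds rows under 50 counts, and 1 with the 1.5-fold rule. With TMM, size factors and the reduced totals in turn, the log2 ratio of the miR-106 cluster's sum was -0.059, -0.078 and 0.046, that of the miR-17 seed -0.00017, -0.020 and 0.10, and that of the miR-92 seed 0.10, 0.082 and 0.21. The miR-17 cluster's sum was -0.025 with size factors and 0.10 with the reduced totals. With miR-19b and miR-92 counted in both clusters it was 0.24, and that of the miR-106 cluster was 0.14, by construction the pull of miR-92-3p. The share of the miR-106 cluster was 32.6% in CC and 33.6% in CT without novel_163, and 76.9% and 76.2% without the miR-17 and miR-106 rows, a setting chosen after seeing the data. Summing members 1 base apart, also chosen afterwards, left 7 of 8 higher with a median log2 ratio of 0.084. Depth limits the miR-18 rows and the minor arms most.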
